A study of Schizosaccharomyces pombe with 6 samples.

Results

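Genes for the mating pheromones, their receptors, the G protein that relays the signal and the formin of cell fusion were followed in haploid fission yeast (Schizosaccharomyces pombe) growing vegetatively. The set was fixed by name and holds 10 genes of the 7269 counted features. They are mfm1 (SPAPB8E5.05.1), mfm2 (SPAC513.03.1), mfm3 (SPBPJ4664.03.1), mam2 (SPAC11H11.04.1), map1 (SPAC11E3.06.1), map3 (SPAC3F10.10c.1), gpa1 (SPBC24C6.06.1), rgs1 (SPAC22F3.12c.1), sxa2 (SPAC1296.03c.1) and fus1 (SPAC20G4.02c.1). RNA-seq libraries came from 3 biological replicates of wt and 3 of a strain that combines the sad1.2 allele with a deletion of csi1, called the mutant here. All were log-phase cultures in rich medium at 30 °C, and the comparison asks how declustered centromeres bear on gene expression. The labels give no mating type for either strain and do not say whether the mutant is 1 clone.

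Fission yeast has the mating types M and P. M cells secrete M-factor, a short lipid-modified peptide cut from the precursors encoded by mfm1, mfm2 and mfm3, and carry Mam2, the receptor for P-factor. P cells secrete P-factor, encoded by map2, and carry Map3, the receptor for M-factor. Both receptors signal through the G protein alpha subunit Gpa1 to a MAP kinase cascade, and the transcription factor Ste11 switches on many of the genes when nitrogen runs out. In rich medium this program is held low, and all cultures measured here grew in it. Whether the program ran in a part of the cells was not tested.

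The M-factor genes are shown first, because the values of the 3 genes turn on how far their sequences and positions can be told apart. These are the last 60 coding bases of each, stop codon included, the end that holds the mature peptide, read by gene identifier from the RefSeq reference assembly ASM294v3. Capitals mark positions where all 3 genes have the same base.
mfm1: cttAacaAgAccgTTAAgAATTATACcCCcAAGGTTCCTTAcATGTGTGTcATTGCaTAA
mfm2: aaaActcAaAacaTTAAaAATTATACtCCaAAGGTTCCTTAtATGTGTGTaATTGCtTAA
mfm3: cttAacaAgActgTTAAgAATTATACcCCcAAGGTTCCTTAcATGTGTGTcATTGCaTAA
All 3 genes agreed at 44 of the 60 positions. The mfm1 and mfm3 ends were identical at 59 of 60 (98.3%), whereas mfm2 matched mfm1 at 45 (75.0%) and mfm3 at 44 (73.3%). The precursors are 42, 44 and 41 codons long for mfm1, mfm2 and mfm3. Over the annotated transcripts, the longest run of bases shared without a mismatch was 48 between mfm1 and mfm3 and 11 between mfm2 and either of the others. Reads that fall in the stretch shared by mfm1 and mfm3 could be assigned to neither with certainty, and the treatment of such reads in the counting is not given in the sources used here.

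The position of a gene also set what could be measured. Of 347 coding genes whose annotated exon bases all lie inside other counted features, 320 (92.2%) had a count of 0 in all 6 libraries. Of 2182 coding genes that share no base with another feature, 39 (1.79%) did. The 270 exon bases of mfm3 all lie within the non-coding RNA gene SPNCRNA.1381 on the opposite strand. The count of mfm3 was 0 in every library, while SPNCRNA.1381 held 496, 381 and 467 counts in the wt libraries against 619, 567 and 451 in those of the mutant. The level of mfm3 cannot be read from these counts, and mfm3 was not tested.

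**Figure D1:**
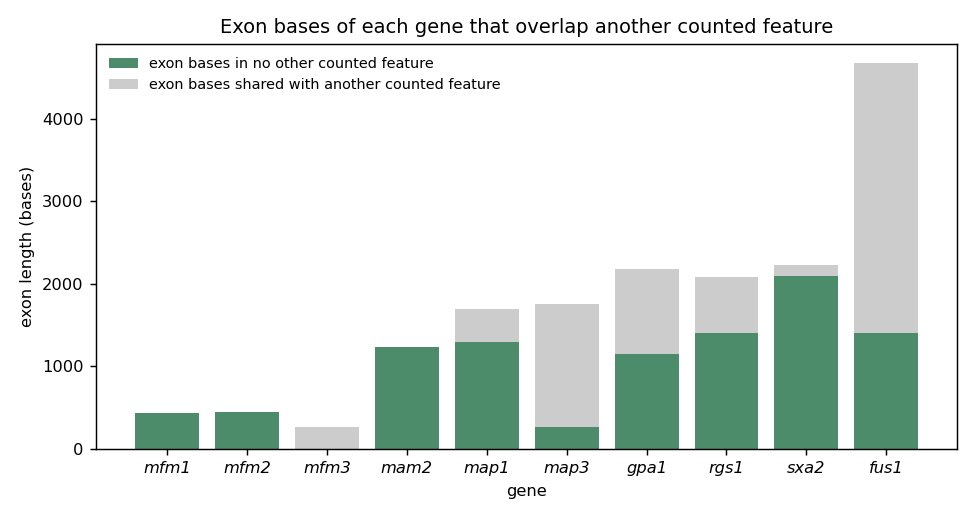
Exon length in bases (y axis) of each of the 10 genes (x axis), split into bases that lie in no other counted feature (green) and bases shared with another counted feature (grey), from the annotation of ASM294v3. All 270 bases of mfm3 are shared, 264 of the 1758 bases of map3 are its own, and mfm1, mfm2 and mam2 share none.

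Among the others, mfm1 (436 exon bases), mfm2 (447) and mam2 (1235) share no base with another feature. Of the map3 transcript, 264 of 1758 bases (15.0%) are its own, and the rest overlaps the histidine synthesis gene his6 on the opposite strand. The long fus1 transcript keeps 1402 of 4676 bases (30.0%), since SPNCRNA.1026 covers 3205 of them and caf16 another 69. For gpa1, rgs1, map1 and sxa2 the share was 52.7%, 67.5%, 76.2% and 93.8%. Levels are given as CPM, the count relative to the size of its library after TMM scaling, and levels of different genes are compared only as CPM per kb of bases of their own. Where an older annotation placed transcript ends elsewhere, this length is uncertain, most of all for map3.

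The genotype was checked by csi1, which had 1271, 1142 and 1225 counts in wt. The mutant libraries held 210, 204 and 63, so each lay below each wt library, and some reads were still counted to the gene. The gene of the other altered protein, sad1, stood at 81.8 ± 1.66 CPM in wt and 153 ± 6.81 CPM in the mutant (SD, n = 3 each), higher in every mutant library (log2 0.90, SE 0.0728, edgeR adjusted p = 0.00639). Total counts per library lay between 19074531 and 19951875. Across all 4941 tested genes, 113 (2.29%) were higher and 6 (0.121%) lower in the mutant at an edgeR adjusted p under 0.05. Every mutant library lay above every wt library for 16.7% of tested genes, and below for 13.8%. In wt, replicate 2 stood apart from the other libraries. In the mutant, replicate 3 was the farthest from the others, but less clearly. A chi-square of the gene counts, divided by its degrees of freedom, was 137 and 106 between wt replicate 2 and wt replicates 1 and 3, which differed from each other by 9.68. It was 126 and 69.2 between mutant replicate 3 and mutant replicates 1 and 2, which differed by 43.8. The deviations of wt replicate 2 and mutant replicate 3 from their group means correlated at 0.658 across genes, which are not independent replicates. Results with both left out stand with the called genes. A background was read from 27 weakly expressed coding genes that share no base with another feature. Listed mating and meiotic genes, genes with set name prefixes and genes near chromosome ends were left out. That exclusion went by name and position, so some meiotic or stress genes may remain. The median gain of the 27 genes over the wt mean was 2.48, 1.58 and 0.788 CPM per kb in mutant replicates 1, 2 and 3. It was 0.0201, −0.134 and 0.243 in the wt replicates. A wider set of 72 such genes, allowed to share bases, gave 1.93, 1.03 and 0.614 in the mutant. Genes of either set had to pass the expression filter over all libraries and be low in wt. That choice favours genes that are higher in the mutant, so these gains may be overstated. The wt values lie near 0 by construction, since the gain is measured from the wt mean. Markers of meiotic cells moved the same way. The summed level of mei4, rec8, mek1, rec10, spo5 and meu13 was 28.7 to 43.2 CPM in wt and 68.1 to 133 CPM in the mutant, with each of the 6 higher in every mutant library, mek1 and rec10 passing the edgeR test and all 6 detected in every library. DESeq2 called 5 of these 6 and limma voom 0, and all 6 had an unadjusted p under 0.05 in edgeR. Over all genes, DESeq2 called 364 of 5554 higher and limma voom 79 of 4941. In edgeR, 1116 of 4941 genes had an unadjusted p under 0.05 in either direction. The part of these background and marker shifts in the results below was not tested, apart from the subtraction given with the called genes. In bulk RNA, more cells expressing a gene and more RNA per cell cannot be told apart.

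Markers of both mating types were present in every library. The summed level of the M markers, mfm1, mfm2, mfm3, mam1, mam2, mam3, sxa2 and mat1-Mc, was 185 to 202 CPM in wt and 212 to 245 CPM in the mutant. That of the P markers map2, map3 and map4 was 37.7 to 44.4 CPM in wt and 47.8 to 66.0 CPM in the mutant. Of the M list, mfm3 and mat1-Mc were at 0 in all libraries, the second having a near-identical copy, mat3-Mc, and mat1-Pc was not analysed here. Within each library, mfm1, mfm2, mam2 and sxa2 made up 65.6%, 75.0% and 68.2% of the counts of these genes plus map2, map3 and map4 in wt and 67.0%, 68.4% and 72.7% in the mutant. The means were 69.6% ± 4.84 and 69.4% ± 2.95 (SD, n = 3 each), a difference of −0.230 percentage points, less than the spread between replicates (exact permutation test, two-sided, p = 1; 3 against 3 cannot give less than 0.1).

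Of the 10 genes, 9 passed the expression filter, each with at least 29 counts in every library. In the mutant, edgeR called mfm1, map1 and fus1 higher and 0 lower, and 5 of the 9 had an unadjusted p under 0.05. DESeq2 called the same 3 (364 of 5554 genes higher over all), and limma voom called map1 and fus1 (79 of 4941). Those 3 of 9 compare with 2.29% of all tested genes called higher, but the genes were picked with earlier results in view. Every mutant library lay above every wt library in 6 of the 9, namely mfm1, map1, gpa1, rgs1, sxa2 and fus1 (16.7% of all tested genes), and in 0 of the 9 below (13.8%). The median log2 fold change of the 9 was 0.40, beside 0.00 (0.00431 before rounding) for all tested genes.

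**Figure D2:**
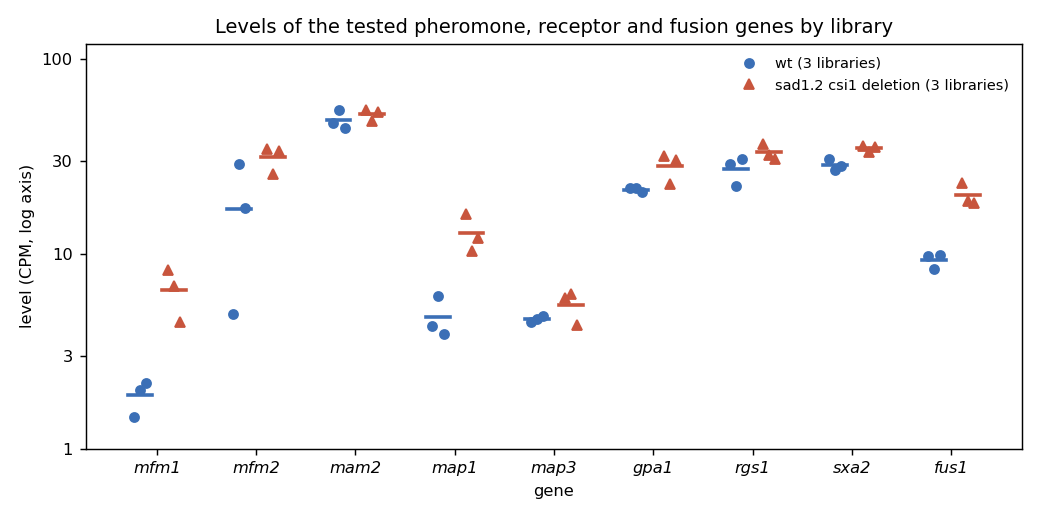
Level in CPM on a log axis of the 9 tested genes in each library, with wt as circles, the mutant as triangles and bars at the mean of 3 libraries. The groups stand apart for mfm1, map1 and fus1, lie close together for mam2, sxa2 and rgs1, and wt replicate 1 is low for mfm2.

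Of the M-factor genes, mfm1 passed the test and mfm2 did not, and a difference between their changes was not shown. In wt, mfm1 stood at 1.46, 2.00 and 2.18 CPM (29, 35 and 42 counts), and in the mutant at 8.29, 6.86 and 4.50 CPM (186, 137 and 88 counts). The lowest mutant library was above the highest wt library. The gene rose from 1.88 ± 0.375 to 6.55 ± 1.92 CPM (SD, n = 3 each). That is 1.80 on the log2 scale (SE 0.299, adjusted p = 0.0398 by edgeR) or 3.48-fold, the largest change among the 9. Per kb its mean went from 4.32 to 15.0 CPM, with 19.0, 15.7 and 10.3 CPM in mutant replicates 1, 2 and 3. The weakly expressed genes that share no base had a median gain of 2.48, 1.58 and 0.788 CPM per kb in the same libraries, falling in the same order. With that gain subtracted, mfm1 lost its call (edgeR adjusted p = 0.0581), as given with the called genes.

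The other measurable M-factor gene, mfm2, was the more abundant of the pair in every library. It stood at 4.94, 28.9 and 17.3 CPM in wt and at 34.7, 25.7 and 33.7 CPM in the mutant. The groups overlap, because wt replicate 2 lies within the mutant range, and wt replicate 1 holds less than either other wt library. The change of 0.88 on the log2 scale (SE 0.532) did not pass, with an edgeR adjusted p of 0.376. Without wt replicate 1 it was 0.44 (adjusted p = 0.413) and without wt replicate 2 it was 1.49 (adjusted p = 0.119, where the alternatives spanned 0.119 to 0.642), so single wt libraries decide its size. Of the counts in mfm1 and mfm2 together, mfm1 took 22.8%, 6.47% and 11.2% in the wt libraries against 19.3%, 21.1% and 11.8% in the mutant ones, that is 13.5% ± 8.42 and 17.4% ± 4.95 (SD, n = 3 each). The difference of 3.87 percentage points was less than the spread within wt (exact permutation test, two-sided, p = 0.6); without wt replicate 2 it was 0.351 and without wt replicate 1 it was 8.53.

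The level of ste11, the regulator of these genes, also varied among replicates. It was 83.3, 32.4 and 55.9 CPM in wt replicates 1, 2 and 3 and 77.4, 45.2 and 40.4 CPM in the mutant. The wt library with the most ste11 thus held the least mfm1 and mfm2, and the wt library with the least ste11 held the most mfm2. In the mutant, replicate 1 was highest for ste11, mfm1 and mfm2, and ste11 and mfm1 had the same order of replicates. A relation between these levels was not tested. Between genotypes ste11 differed by −0.07 on the log2 scale (SE 0.374), and edgeR gave an adjusted p of 0.935.

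**Figure D3:**
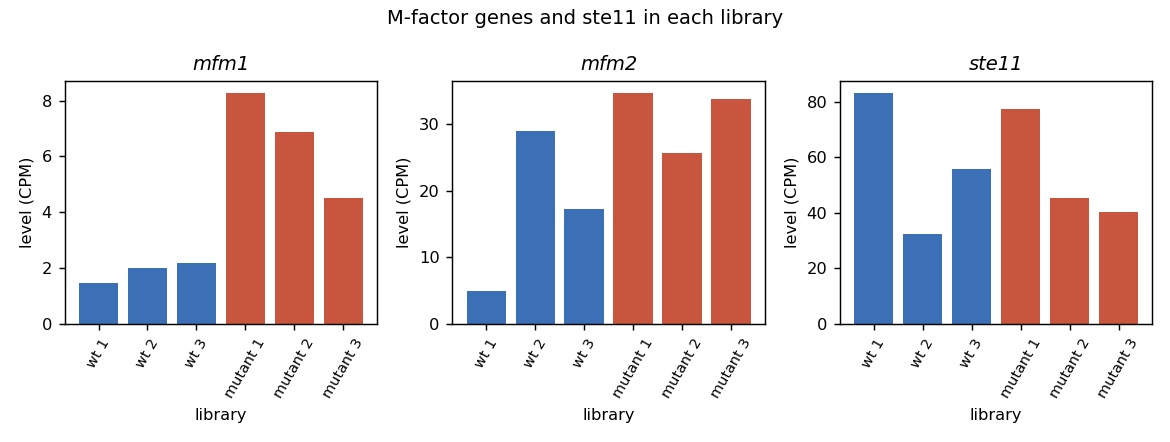
Level in CPM of mfm1, mfm2 and ste11 in each of the 6 libraries, with wt in blue and the mutant in red and a separate axis from 0 for each gene. In mfm1 all mutant libraries exceed all wt libraries, whereas mfm2 (4.94 to 28.9 CPM) and ste11 (32.4 to 83.3 CPM) spread widely among the wt libraries.

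The receptor genes did not pass the test. The P-factor receptor gene mam2 stood at 47.3, 55.0 and 44.5 CPM in wt and 55.2, 48.4 and 53.5 CPM in the mutant, and the groups overlap throughout. At 0.10 (SE 0.115) its log2 fold change was the smallest of the 9, with an adjusted p of 0.664 from edgeR. The M-factor receptor gene map3 was at 4.49, 4.63 and 4.83 CPM in wt and 5.93, 6.21 and 4.34 CPM in the mutant, with mutant replicate 3 below all wt libraries. Its log2 fold change was 0.24 (SE 0.203, adjusted p = 0.535). Since most of its transcript overlaps his6, its level rests on the 15.0% of its bases that are its own.

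The regulator gene map1 rose. Map1 is a MADS-box protein that acts with the P-type mating protein to switch on P-specific genes such as map3 and map2. It stood at 4.29, 6.12 and 3.90 CPM in wt and 16.0, 10.4 and 12.1 CPM in the mutant, with no overlap. The mean went from 4.77 ± 1.18 to 12.8 ± 2.89 CPM (SD, n = 3 each), or 2.69-fold. On the log2 scale the rise was 1.43 (SE 0.250), and edgeR gave an adjusted p of 0.0418. On the opposite strand, SPNCRNA.1067 overlaps 403 of its exon bases and had 0 counts in every library. Of the P-specific genes, map2, the P-factor precursor gene, stood at 3.98, 4.63 and 4.89 CPM in the wt libraries against 11.8, 8.32 and 6.39 CPM in the mutant ones. Its mean was 4.50 ± 0.465 against 8.83 ± 2.73 CPM, every mutant library above every wt library, but its adjusted p of 0.0972 (log2 0.97, SE 0.258) missed the threshold.

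The signalling and pheromone breakdown genes lay slightly higher in the mutant without passing. The G protein gene gpa1 was at 21.8, 21.8 and 20.7 CPM in wt and 31.9, 22.8 and 30.4 CPM in the mutant, with mutant replicate 2 close to wt. The log2 difference was 0.40 (SE 0.148), with an adjusted p of 0.173 by edgeR. Rgs1, a regulator of G protein signalling that damps the response, had a gene level of 29.0, 22.4 and 30.7 CPM in wt and 37.0, 32.4 and 31.0 CPM in the mutant. The lowest mutant library exceeded the highest wt library only narrowly, and the log2 fold change was 0.29 (SE 0.149, adjusted p = 0.304). Sxa2 is a secreted carboxypeptidase of M cells that degrades P-factor. Its gene had 614, 472 and 544 counts in the wt libraries against 807, 667 and 693 in those of the mutant, or 28.7 ± 2.03 and 34.9 ± 1.35 CPM (SD, n = 3 each). The groups were apart but by little (log2 0.28, SE 0.102, adjusted p = 0.169). At an unadjusted p under 0.05, gpa1 and sxa2 joined the 3 called genes, for 5 of 9, where 1116 of 4941 genes did so.

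The fusion gene fus1 rose. It encodes the formin that builds the actin structure at the contact site of mating cells. The levels were 9.73, 8.40 and 9.87 CPM in wt and 23.1, 18.6 and 18.3 CPM in the mutant. No wt library reached the lowest mutant library. The mean went from 9.34 ± 0.812 to 20.0 ± 2.66 CPM (SD, n = 3 each). The log2 fold change of 1.10 (SE 0.151) had the lowest adjusted p of the 9, at 0.0234 by edgeR, and equals 2.14-fold. Per kb of its own bases the level went from 6.66 to 14.3 CPM.

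**Figure D4:**
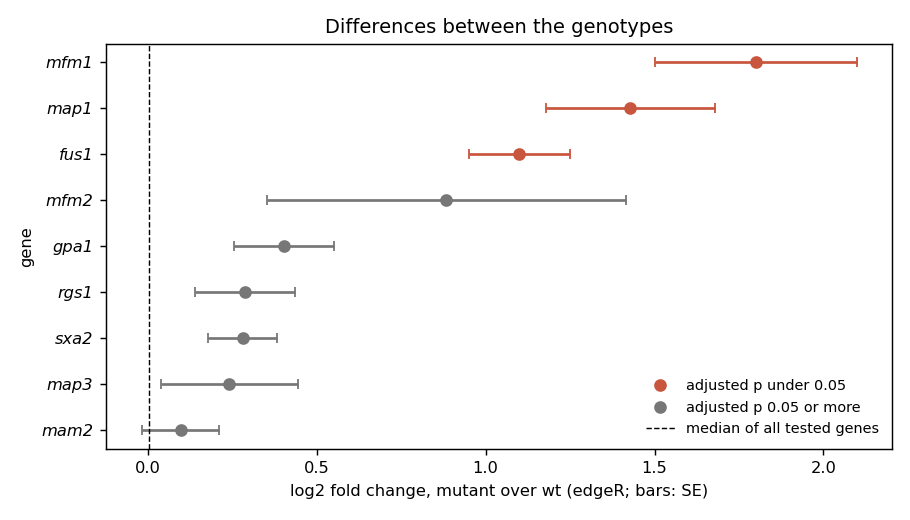
Log2 fold change of mutant over wt for the 9 tested genes (points) with the SE (bars), from edgeR on 3 libraries a group, with genes at an adjusted p under 0.05 in red. The dashed line is the median of all 4941 tested genes; all 9 points lie to its right, from 0.10 for mam2 to 1.80 for mfm1.

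Each of the 3 calls was lost without some single libraries. For fus1 the edgeR adjusted p was 0.102 without wt replicate 1, 0.139 without wt replicate 3, 0.0820 without mutant replicate 1 and 0.117 without mutant replicate 2, and it passed without the other 2 libraries. For map1 it was 0.148, 0.195, 0.135 and 0.117 without those 4 libraries and 0.0577 without mutant replicate 3. For mfm1 it was 0.142, 0.172, 0.128 and 0.139 without the same 4 and 0.0596 without wt replicate 2. Over all genes, edgeR made 0 calls without wt replicate 1, 0 without wt replicate 3 and 0 without mutant replicate 2, where 809, 678 and 932 genes had an unadjusted p below 0.05. It made 17 calls when mutant replicate 1 was left out. Wt replicate 2 and mutant replicate 3, each the farthest from the others of its genotype, were also left out together. The edgeR adjusted p was then 0.00396 for mfm1, 0.00597 for map1 and 0.00498 for fus1, and 1025 of all genes were called. That omission was chosen with earlier results of these data known. The log2 fold changes of the 3 genes moved less, between 1.58 and 2.05 for mfm1, 1.22 and 1.69 for map1 and 0.97 and 1.23 for fus1 over all alternatives. The adjusted p over those alternatives ranged from 1.23e-05 to 0.172 for mfm1, from 1.20e-05 to 0.195 for map1 and from 1.65e-07 to 0.139 for fus1, with the lowest value from DESeq2 in each. The background gain per kb was also subtracted from each mutant library. With the 27 genes that share no base, the log2 fold change was 1.72 for mfm1 (adjusted p = 0.0581), 1.25 for map1 (adjusted p = 0.0734) and 1.00 for fus1 (adjusted p = 0.0409), so fus1 alone kept its call among these 3. The wider set of 72 genes was tried after that result had been seen, because 27 genes are few. It gave 1.75 for mfm1 (adjusted p = 0.0499), 1.30 for map1 (adjusted p = 0.0600) and 1.03 for fus1 (adjusted p = 0.0370). The call of mfm1 after subtraction thus depends on how the weakly expressed genes were defined, and its pass with the wider set is no support for it.

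**Figure D5:**
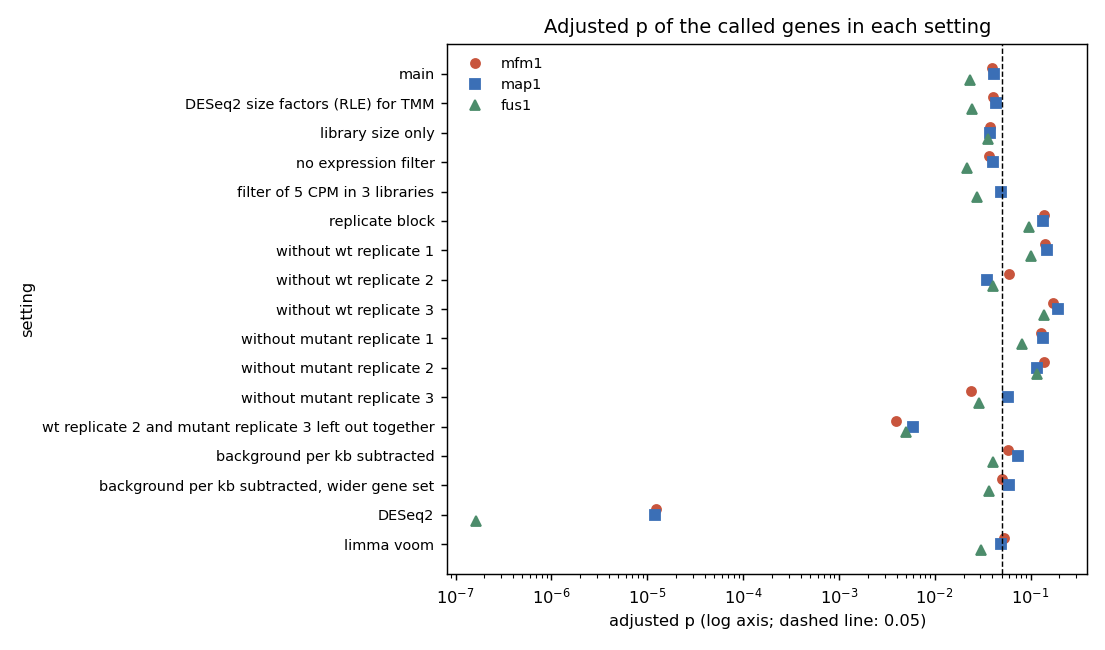
Adjusted p on a log axis of mfm1, map1 and fus1 (symbols) in the reported analysis (main) and each alternative setting, with a dashed line at 0.05. Leaving out wt replicate 1, wt replicate 3, mutant replicate 1 or mutant replicate 2 puts all 3 genes to the right of the line, and DESeq2 gives the lowest values.

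In the authors' deposited table, a positive log2 fold change is higher in the mutant, since csi1 stands there at −1.83. The edgeR fit here gave −3.08 for csi1, and the 9 genes also have smaller log2 fold changes in that table than here. The reason was not tested, and sizes of change are not compared between the sources. That table has adjusted p-values under 0.05 for the same 3 of the 9 genes, against 6.3% of its genes with an adjusted p that are positive and under the threshold. In the authors' deposited table, the log2 fold changes were 1.02 for mfm1 (adjusted p = 0.000104), 1.01 for map1 (adjusted p = 1.24e-05) and 0.92 for fus1 (adjusted p = 2.02e-07). Those of the other 6 genes lay there between 0.07 for mam2 and 0.33 for gpa1, with mfm2 at 0.25.

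Ordered by mean level per kb of their own bases, some neighbouring genes changed place between the genotypes. Each such pair overlapped in its ranges in wt, in the mutant or in both, so a change of order was not shown. In wt the order was mam2 (39.6 ± 4.38 CPM per kb), mfm2 (38.1 ± 26.8), rgs1 (19.4 ± 3.12), gpa1 (18.7 ± 0.539), map3 (17.6 ± 0.657), sxa2 (13.7 ± 0.971), fus1 (6.66 ± 0.579), mfm1 (4.32 ± 0.859) and map1 (3.69 ± 0.918; SD, n = 3 each). Neighbours from mam2 through map3 overlapped in their ranges, as did mfm1 and map1, while map3 and sxa2, sxa2 and fus1, and fus1 and mfm1 stood apart. In the mutant, mfm2 led at 70.2 ± 11.1 CPM per kb, apart from mam2 at 42.4 ± 2.89. There mfm1 at 15.0 ± 4.40 and fus1 at 14.3 ± 1.90 overlapped with sxa2 at 16.7 ± 0.642, and map1 was lowest at 9.92 ± 2.24.

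The rest of the mating pathway, in 4 lists of 45 genes, had 2 calls among 42 tested, both higher and both at the entry into meiosis. The median log2 fold change was 0.09, and every mutant library lay above every wt library for 12 of the 42 and below for 3. Over all tested genes, 2.29% were called higher, 16.7% stood above and 13.8% below, and 1116 of 4941 had an unadjusted p under 0.05. Of 7 genes for pheromone production, export and breakdown, edgeR called 0, with 1 at an unadjusted p under 0.05; DESeq2 called 1, map2, and limma voom 0. They include mam1, the M-factor transporter gene, at 53.4 ± 8.61 CPM in wt and 54.2 ± 7.20 CPM in the mutant (log2 0.02, adjusted p = 0.960). Of 11 tested genes of the Ras and MAP kinase cascade, edgeR called 0, with 3 at an unadjusted p under 0.05; DESeq2 called 1, spk1, and limma voom 0. The MAP kinase gene spk1 came nearest, at 2.41 ± 0.358 against 4.47 ± 0.652 CPM (log2 0.89, SE 0.223, adjusted p = 0.0853). The kinase gene byr1 and the Ras exchange factor gene ste6 have no exon base outside other features, like mfm3, and had at most 4 counts in any library.

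Of 11 tested genes of agglutination, fusion and karyogamy other than fus1, edgeR, DESeq2 and limma voom each called 0, and 0 had an unadjusted p under 0.05 in edgeR. The list had a median log2 fold change of 0.09 and a highest value of 0.40 for dni2, a gene of the cell fusion step. The P-type agglutinin gene map4 was at 32.5 ± 3.80 against 41.2 ± 6.17 CPM (log2 0.34, adjusted p = 0.226). Of 13 regulators of mating and meiotic entry, edgeR called 2, with 3 at an unadjusted p under 0.05; DESeq2 called the same 2 and limma voom 1. The meiotic inducer gene mei3 rose from 0.502 ± 0.169 to 3.42 ± 1.08 CPM (log2 2.77, SE 0.380, adjusted p = 0.0234 by edgeR), and mei2, an RNA-binding regulator of meiosis, from 16.8 ± 1.49 to 43.9 ± 17.1 CPM (log2 1.39, SE 0.263, adjusted p = 0.0487). With limma voom mei3 kept its call (adjusted p = 0.0351) and mei2 lost it (adjusted p = 0.0714). The call of mei3 rests on few wt counts, 7, 12 and 9, beside 102, 66 and 47 for the mutant libraries. All 1272 exon bases of mei3 are its own. Its 4.55, 3.31 and 2.40 CPM in mutant replicates 1, 2 and 3 fell in the same order as the background gain. That gain was 2.48, 1.58 and 0.788 CPM per kb in the 27 weakly expressed genes. The order was the same for mei2 (63.5, 35.3 and 32.9 CPM), mfm1 (8.29, 6.86 and 4.50 CPM) and fus1 (23.1, 18.6 and 18.3 CPM). It was not the same for map1 (16.0, 10.4 and 12.1 CPM). How much of the rise of mei3 is background was not tested. The median log2 fold change of the 13 regulators was −0.04.

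The letters of the Ste11 binding box are shown for the genes that rose, since Ste11 is the known regulator of the set. The 9 letters TTCTTTGTT, on either strand within 500 bases before the start codon, occur in 183 of 5112 coding genes (3.58%) of ASM294v3 and in 5 of the 10 genes here. Sites are printed in the direction of the gene with the box in capitals, so that a box on the opposite strand reads AACAAAGAA; the number is the distance in bases from the box to the start codon.
mfm1, 154: gtccgaccAACAAAGAAgtctcagt
mfm3, 155: gcccaaccAACAAAGAAgtctcaga
map1, 55: caatttgtAACAAAGAAacacacat
rgs1, 449: ttaatgatTTCTTTGTTtaaaagaa
fus1, 239: gttagtatTTCTTTGTTctttaacg
fus1, 156: ttaaaccgAACAAAGAAagttatgt
The 3 called genes each hold the box, fus1 in both directions. It is also before rgs1, which did not pass, and before mfm3, which could not be measured. The shorter core CTTTGTT, part of the longer box, occurs before 914 coding genes (17.9%) and before 9 of the 10 genes, all but map3, with 3 copies before mfm2. A match of letters is a description of the window and not a measured binding site.

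Log2 profiles over the 6 libraries were centred on the wt mean of each gene, so they compare changes and not levels. Distances between them are the root mean square in log2 units. The tested genes closest to map1 were the uncharacterized SPBC1348.12 (0.0732), mug45 (0.120) and the TFIIB gene sua7 (0.136). The last went from 26.8 ± 5.76 to 71.7 ± 13.9 CPM. Those closest to fus1 were the serine protease gene htr11 (0.116), the glomulin gene glm1 (0.118) and SPNCRNA.1133 (0.122), and those closest to mfm1 were SPNCRNA.1601 (0.214), SPNCRNA.834 (0.214) and sua7 (0.218).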

How the data were processed

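RNA was measured in 6 libraries, 3 of wt and 3 of the mutant, each from 5 µg of total RNA with oligo-dT selection and paired-end sequencing, per the labels' protocols. For each library the authors deposited raw counts by transcript identifier. HISAT2, HTSeq, DESeq2 and the build ASM294v2 are named, per the submitters' processing notes; the sources used here do not give the strand setting or the treatment of multiply mapped reads. The authors also deposited a comparison of the genotypes. Its deposited columns include a log2 fold change per gene, its standard error (treated as a score) and p-values; it stands only beside the results computed here. Other deposited per-library values, in 18 columns, were not used.

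Names, exon lengths, overlaps and sequences were read by gene identifier from RefSeq's ASM294v3, which 6846 of 7269 features matched; no genome coordinates are given, since the builds differ in name. A gene's own bases are exon bases in no other matched feature on either strand. Counts were tested in R 4.3.3 by edgeR (version 4.0.16; quasi-likelihood F test, TMM, robust, genotype as the only term, filterByExpr with a minimum count of 10 and minimum total of 15) on all 6 libraries, with Benjamini-Hochberg adjustment over 4941 features. The fit was tested on simulated data. Libraries of a genotype differed by a chi-square per degree of freedom of 9.68 or more. The labels do not say what separates the biological replicates, so p-values measure the spread between these libraries, which may be technical.

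The genes and lists were chosen with earlier results of these data known. Named genes are the 10 members, csi1, called genes of the lists, set regulators, and for each called member the 3 nearest profiles at a mean of at least 5 CPM. Profiles are log2 of CPM plus 0.5, centred on the wt mean of the gene. List extremes and nearest misses were named after their values were seen. The weakly expressed genes passed the expression filter over all libraries, had under 5 CPM per kb in wt and lay at least 100 kb from chromosome ends. A first set held genes that share no base. A wider set, with at least 300 own bases, was made after the first result had been seen, and both are given. Other alternatives were scalings, filters, DESeq2 1.42.0, limma 3.58.1 voom, a replicate block and left-out libraries.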

Additional observations from a re-analysis of the deposited data

How the results depend on the processing

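In every alternative in which they were tested, the 9 mating genes kept the direction of their log2 fold change. Of their values, 121 stayed on the same side of the threshold and 21, all of mfm1, map1 and fus1, lost the call. The total of 119 genes called became 76 with a filter of 5 CPM in 3 libraries (mfm1 and map3 were then not tested), 45 with the background of genes sharing no base subtracted, 78 with that of the wider set, 1025 with wt replicate 2 and mutant replicate 3 left out together, 510 with DESeq2, and 0 to 151 when each library was left out. The mating genes called, 3, became 1 with the first background and 2 with the wider one, which was added after the data were seen, and 0 to 2 when each library was left out. With limma voom, mfm1 had an adjusted p of 0.0528. With library size only, the median of all genes moved to 0.13. The labels do not say whether replicate numbers pair the libraries. Same-numbered deviations from the group means correlated at 0.444, −0.493 and −0.535. Deviations from a group mean are tied to each other, so these values cannot settle the pairing. Across numbers, wt replicate 2 with mutant replicate 3 gave 0.658 and wt replicate 3 with mutant replicate 2 gave 0.486; no crossed pairing was fitted. With the replicate block, edgeR called 0 of all genes and 0 of the mating genes (845 and 3 at an unadjusted p under 0.05). The difference in the M share of M and P counts, −0.230 percentage points, was 1.75 and 1.19 with the first and the wider background subtracted, 2.79 with counts per kb, 0.803 with the same libraries left out together, and between −2.23 and 2.46 when each was left out. The cause of these changes was not tested. Low counts limit mfm1 and map3, and overlaps hide mfm3, byr1 and ste6.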
